A study of Mus musculus with 6 samples.

Results

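The 10 genes of MHC class II antigen presentation H2-Aa, H2-Ab1, H2-Eb1, H2-DMa, H2-DMb1, H2-DMb2, H2-Oa, H2-Ob, Cd74 and Ciita were examined in small intestinal mucosa of Rbm47-IKO and control mice. They were taken by symbol from the 38561 Ensembl genes of the deposited count tables, all 10 were found, and all 10 were among the 16425 genes tested. The libraries came from 6 pools of polyA RNA, 3 labelled Rbm47_IKO and 3 labelled wt. The RNA was from C57BL/6J mice, which the labels give as 3 per pool, of both sexes and aged 8 to 12 weeks. The study's own text gives a wider range for both the number of mice per pool and the age. In Rbm47-IKO mice a constitutive villin promoter (Vil-Cre) drives deletion of floxed Rbm47, which encodes an RNA-binding protein, in the intestinal epithelium, so that lamina propria immune cells keep the gene. The labels name the controls as wild type, whereas the study's own text names the comparison genotype Rbm47 fl/fl, that is floxed mice without Cre. The comparison asks whether transcripts of class II presentation differ between the genotypes in mucosa, which holds both epithelium and immune cells. It rests on the spread between pools, since animals within a pool were not measured separately.

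MHC class II molecules are heterodimers that carry peptides from the endosomal pathway to the cell surface, where CD4 T cells read them. H2-Aa and H2-Ab1 encode the α and β chains of I-A, and H2-Eb1 encodes the β chain of I-E, whose α chain gene is not functional in the C57BL/6 haplotype. Cd74 encodes the invariant chain, which occupies the groove and sorts new molecules to endosomes. H2-DMa and H2-DMb1 or H2-DMb2 encode H2-M, which exchanges the invariant chain remnant for peptide, and H2-Oa and H2-Ob encode H2-O, which restrains H2-M. Ciita encodes the master coactivator, which is recruited to the X and Y boxes of these promoters by the RFX, CREB and NF-Y factors. Dendritic cells, B cells and macrophages express the genes constitutively, H2-O is known mainly from B cells and some dendritic cells, and interferon-γ and the microbiota induce class II in small intestinal enterocytes.

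Promoter windows from RefSeq (GRCm38.p6, 250 bases before to 50 after a start site) were held for 7 of the 10 genes, and stretches of 6 are shown to let the X and Y boxes be compared between genes. Capitals mark the Y box core GATTGG and, where at least 8 of the 9 fixed letters matched, the stretch closest to the X box consensus, whose 9 fixed letters are all met by the capitals of H2-DMb1. Each stretch runs 5′ to 3′ on the gene's own strand from 50 bases before the Y box core to 20 after it.
H2-Eb1 (chr17:34305757-34305832, plus strand): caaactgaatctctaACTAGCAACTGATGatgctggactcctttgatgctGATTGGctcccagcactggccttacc
H2-DMb1 (chr17:34153079-34153154, plus strand): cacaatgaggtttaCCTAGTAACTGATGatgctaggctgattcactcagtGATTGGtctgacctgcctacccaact
H2-DMb2 (chr17:34145108-34145183, plus strand): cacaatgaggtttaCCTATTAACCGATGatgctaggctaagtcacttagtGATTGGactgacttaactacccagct
H2-Ob (chr17:34238797-34238872, plus strand): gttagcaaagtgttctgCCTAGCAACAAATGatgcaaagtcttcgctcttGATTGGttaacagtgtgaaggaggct
H2-Oa (chr17:34092285-34092360, plus strand): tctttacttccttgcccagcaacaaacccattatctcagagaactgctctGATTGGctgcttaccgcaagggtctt
H2-Aa (chr17:34287847-34287922, minus strand): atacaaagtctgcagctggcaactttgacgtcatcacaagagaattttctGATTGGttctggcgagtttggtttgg

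GATTGG, sought on both strands, was present in windows of all 7 genes and in 7 of their 8 windows, against 16.1% of all 32851 windows of the same length. In each of the 7 genes it was found on the coding strand, which held it in 8.71% of all windows. The full X box was found in H2-DMb1 alone of the 7, and in 0.289% of all windows. A coding-strand Y core with 8 or 9 of the 9 X letters starting at most 42 bases before it, a rule set after the stretches were seen, was held by 4 of the 7 genes. Among all windows 10 held it, or 0.0304%, and these included the class II locus H2-Eb2. Of the 6 genes shown, H2-Oa matched 6 of the 9 letters and H2-Aa 4. The window of H2-DMa that held GATTGG lay 9664 bases from the first base of the gene in the count tables and is not shown, and that of H2-DMb2 lay 1942 bases from it. A match describes the letters only and does not show that a factor was bound.

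The 6 libraries held 31560320 to 38951830 counts. Rbm47 had 20864, 23658 and 20236 counts in the pools labelled Rbm47-IKO and 15635, 17076 and 17206 in the wt pools, and was thus not lower where the label says it was deleted. Its log2 fold change was 0.42 (edgeR quasi-likelihood test with Benjamini-Hochberg adjustment over all genes, adjusted p = 0.0751). Every pool labelled Rbm47-IKO lay above every wt pool, whereas the study reports negligible Rbm47 mRNA and protein after the deletion. The counts cover the whole gene, so that the loss of an exon could not be read from them. The cause of the difference from the study's report was not tested, and the pools are called by their labels. Genes of enterocytes were abundant in all pools, with a summed level of 9 such genes, Sis and Apoa1 highest on the mean of all pools, between 38170 and 42020 CPM, the count scaled by TMM library size. The pools were uneven in smooth muscle, where 6 genes led by Myh11 and Acta2 summed to 360.9, 585.7 and 3302 CPM in the pools labelled Rbm47-IKO and to 90.7, 2803 and 313.1 CPM in the wt pools. They also differed in sex. Xist, expressed from the inactive X of females, was at 75.6, 258.1 and 40.3 CPM in the pools labelled Rbm47-IKO and at 1.09, 150 and 0.686 CPM in the wt pools, so that wt pools 1 and 3 held almost no female RNA, against their label of both sexes. The summed level of 4 Y-linked genes was 138.6, 53.0 and 143.7 CPM and 215.4, 87.9 and 220.3 CPM, highest in those 2 pools. Results are therefore also given without wt pools 1 and 3, which leaves wt pool 2 as the only control, its spread taken from the other group. Bulk RNA cannot tell fewer cells of a type from less RNA per cell.

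Per kilobase of transcript, the invariant chain and the classical chains were far above H2-M, Ciita and H2-O (plot of levels by pool). Cd74 (ENSMUSG00000024610, chromosome 18, 60803848 to 60812646) was highest, with 747.0 ± 277.6 RPKM (SD, n = 3 pools) in wt pools and 383.2 ± 154.1 (SD, n = 3) in pools labelled Rbm47-IKO. Cd74 was above H2-Ab1 in every pool with no overlap between the genes. H2-Ab1, H2-Aa and H2-Eb1 followed at 292.9, 214.7 and 207.6 RPKM in wt pools, and these neighbours overlapped. H2-DMb1 and H2-DMa came next at 26.1 and 22.3 RPKM and overlapped, and Ciita lay below both at 8.10 RPKM in every wt pool. H2-DMb2, H2-Ob and H2-Oa were lowest, at 1.91, 1.81 and 0.532 RPKM, of which H2-DMb2 and H2-Ob overlapped. In the pools labelled Rbm47-IKO the order differed only within overlapping neighbours, where H2-Eb1 lay above H2-Aa in all 3 pools and H2-Ob above H2-DMb2 in 2. H2-DMb2 and H2-Oa also overlapped there. The 10 genes together took 0.321%, 0.149% and 0.225% of the wt libraries and 0.164%, 0.106% and 0.083% of the libraries labelled Rbm47-IKO.

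**Figure D1:**
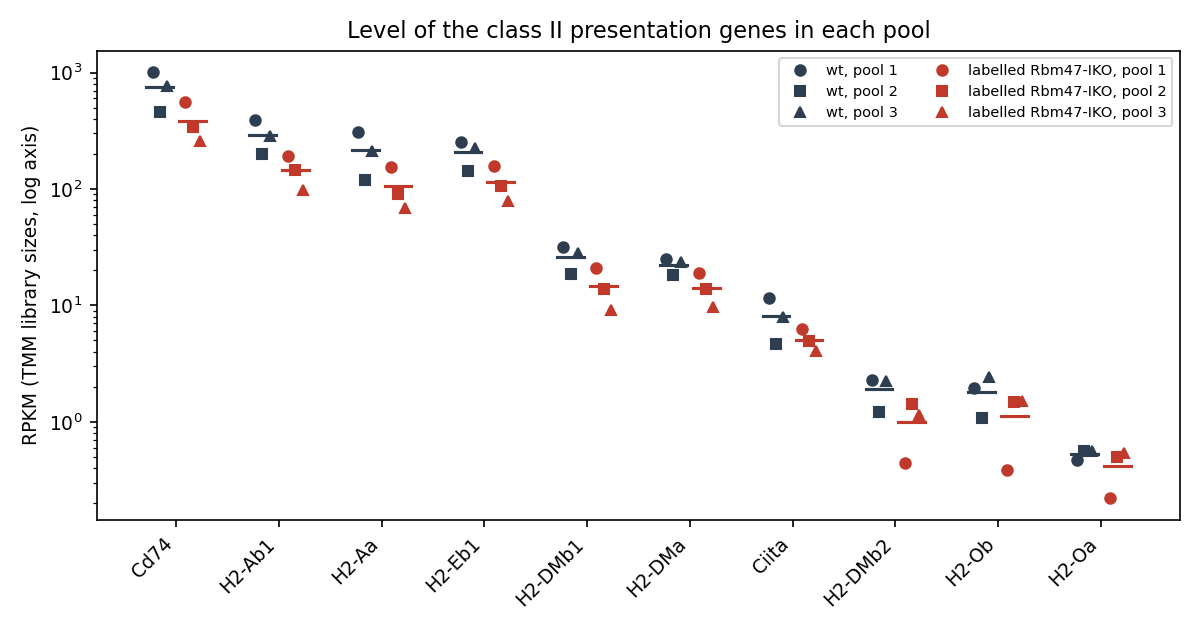
Level of each of the 10 genes per kilobase (RPKM on TMM library sizes, log axis), with 1 marker per pool, the same shape for the same pool number, and a bar at the mean of 3 pools. Cd74 is the highest gene in both groups and H2-Oa the lowest, and the bar of the pools labelled Rbm47-IKO lies below that of wt for each gene.

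The mean of all 10 genes was lower in the pools labelled Rbm47-IKO (where Rbm47 counts were not reduced), and none of the differences passed the adjusted threshold of 0.05 in the edgeR fit, whereas DESeq2 and the edgeR fit with a smooth muscle covariate each called 3, given below. For all of these genes but H2-Oa (-0.34 with all pools), the difference was smaller or reversed without both wt pools 1 and 3. Without both, the log2 fold changes were -0.18 for H2-Aa, -0.47 for H2-Ab1, -0.32 for H2-Eb1, -0.25 for Cd74, -0.36 for H2-DMa, -0.35 for H2-DMb1, -0.27 for H2-DMb2 and -0.41 for H2-Oa, and above 0 for H2-Ob (0.05) and Ciita (0.14). With all pools, for the I-A chains H2-Aa and H2-Ab1 and for the invariant chain the mean was 2.04-, 2.02- and 1.95-fold lower. H2-Ab1 (ENSMUSG00000073421, chromosome 17, 34263209 to 34269418) had 314.8, 237.0 and 159.2 CPM in pools 1 to 3 labelled Rbm47-IKO and 646.0, 329.4 and 463.1 CPM in wt pools 1 to 3. It was the only gene of the 10 whose groups did not overlap, against 11.6% of all genes tested with every pool labelled Rbm47-IKO below every wt pool. The log2 fold change of H2-Ab1 was -1.02 (SE 0.31, 95% interval -1.73 to -0.306, adjusted p = 0.137 with edgeR).

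H2-Aa (ENSMUSG00000036594, chromosome 17, 34282744 to 34287827), the partner chain of H2-Ab1, had 291.4, 170.5 and 128.9 CPM in the pools labelled Rbm47-IKO and 581.9, 224.3 and 400.8 CPM in wt pools. Its groups overlapped, because wt pool 2 lay below pool 1 labelled Rbm47-IKO. Its log2 fold change was -1.03 (SE 0.39, 95% interval -1.95 to -0.112, adjusted p = 0.243 with edgeR). H2-Eb1 (ENSMUSG00000060586, chromosome 17, 34305883 to 34316199) had 185.2, 125.7 and 93.7 CPM against 300.1, 169.3 and 264.2 CPM, with the same pools overlapping. The log2 fold change of this I-E β chain was -0.86 (SE 0.29, adjusted p = 0.182 with edgeR). H2-Ea-ps, its would-be partner, was at or under 2 counts in each of the 6 libraries and was not tested.

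Cd74 had 782.3, 476.6 and 362.1 CPM in the pools labelled Rbm47-IKO and 1424, 644.2 and 1091 CPM in wt pools, and within each group its pools stood in the same order as those of H2-Aa, H2-Ab1 and H2-Eb1. The log2 fold change of Cd74 was -0.96 (SE 0.35, 95% interval -1.79 to -0.139, adjusted p = 0.223 with edgeR). Cd74 varied 2.21-fold among the wt pools and 2.16-fold among the pools labelled Rbm47-IKO, more than the 1.95-fold difference between the means.

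The H2-M genes had log2 fold changes from -0.93 to -0.66. H2-DMa (ENSMUSG00000037649, chromosome 17, 34135182 to 34139101) had 31.1, 22.8 and 15.7 CPM against 41.1, 30.0 and 38.8 CPM, so that 2 of the 3 pools labelled Rbm47-IKO lay below every wt pool. Its log2 fold change was -0.66 (SE 0.24, adjusted p = 0.23 with edgeR). H2-DMb1 (ENSMUSG00000079547, chromosome 17, 34153072 to 34160223) had 31.0, 20.5 and 13.4 CPM against 46.6, 27.6 and 41.4 CPM, with pool 1 labelled Rbm47-IKO above wt pool 2. Its log2 fold change was -0.83 (SE 0.31, adjusted p = 0.234 with edgeR). H2-DMb2 (ENSMUSG00000037548, chromosome 17, 34143307 to 34151553), the second β chain gene, had 26, 92 and 64 counts against 132, 79 and 140, a log2 fold change of -0.93 (SE 0.46, adjusted p = 0.368 with edgeR). Its lowest pool was pool 1 labelled Rbm47-IKO, which was the highest of its group for H2-DMa and H2-DMb1. H2-DMb1 and H2-DMb2 are close paralogs, and reads shared by them could have been split or lost in the authors' counting.

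The H2-O genes had low counts, as did H2-DMb2. H2-Ob (ENSMUSG00000041538, chromosome 17, 34238903 to 34245907) had 42, 177 and 154 counts in the pools labelled Rbm47-IKO and 208, 130 and 277 in wt pools, a log2 fold change of -0.69 (SE 0.51, adjusted p = 0.582 with edgeR). H2-Oa (ENSMUSG00000024334, chromosome 17, 34092340 to 34095234) had 10, 25 and 23 counts against 21, 28 and 27, a log2 fold change of -0.34 (SE 0.41, adjusted p = 0.776 with edgeR). For both, pool 1 labelled Rbm47-IKO was the lowest of all 6 pools, and the other pools of that label overlapped with wt. Without that pool the log2 fold change of H2-Ob was -0.29, that of H2-Oa -0.04 and that of H2-DMb2 -0.57, whereas those of H2-Aa and Cd74 were -1.43 and -1.33. Without wt pool 1 those of H2-Aa and Cd74 were -0.67 and -0.69.

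Ciita (ENSMUSG00000022504, chromosome 16, 10488178 to 10527564), the gene of the class II coactivator, had 32.7, 25.9 and 21.4 CPM in the pools labelled Rbm47-IKO and 61.2, 24.4 and 42.1 CPM in wt pools. Wt pool 2 lay below 2 of the pools labelled Rbm47-IKO, and the log2 fold change was -0.67 (SE 0.32, 95% interval -1.41 to 0.0622, adjusted p = 0.343 with edgeR). The counts cover the whole gene and do not separate its alternative promoters, which are used by different cell types. Of the 7 genes for factors that recruit CIITA 0 were called by edgeR, 1 had an unadjusted p under 0.05 in each direction (Nfyb lower and Nfya higher, both NF-Y subunits), and the median log2 fold change was -0.01. Creb1, a factor of the X box, averaged 44.7 ± 5.62 CPM in the pools labelled Rbm47-IKO and 52.0 ± 8.33 CPM in wt pools, and Nfya 27.5 ± 3.69 and 21.9 ± 2.05 CPM (SD, n = 3 pools each). Rfx5, the DNA-binding RFX subunit, had 9.24, 9.64 and 9.10 CPM against 9.44, 7.04 and 8.12 CPM.

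As a list, the 10 genes had log2 fold changes from -1.03 to -0.34 with a median of -0.85, against a median of -0.01 over all 16425 genes tested. With edgeR 0 of the 10 passed the adjusted threshold, against 2.70% of all genes in either direction and 1.25% in the lower direction. An unadjusted edgeR p under 0.05 was found for 6 of the 10, all lower in the pools labelled Rbm47-IKO, against 8.21% of all genes with that direction. DESeq2 called H2-Ab1, H2-Eb1 and Cd74 (adjusted p = 0.00552, 0.023 and 0.025), against 3.62% of all genes called lower, and limma-voom called 0 of the 10, against 1.16%. Across the pools the 10 genes moved in 2 groups, given below, so that their directions are not separate pieces of evidence. With each pool left out in turn, none of the 10 passed in any of the 6 fits, and each log2 fold change stayed below 0, whereas 2 of the 10 were above 0 without both wt pools 1 and 3.

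**Figure D2:**
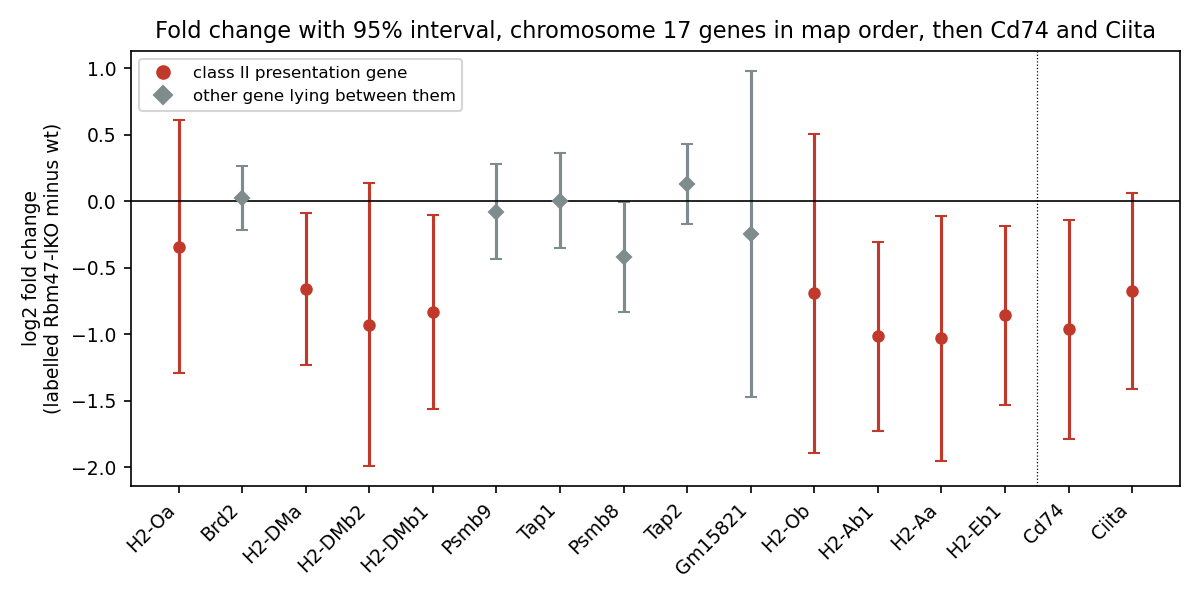
Log2 fold change between the pools labelled Rbm47-IKO and wt pools with its 95% interval from edgeR (not adjusted for the number of genes), for class II presentation genes (circles) and tested genes lying between them (diamonds), in map order on chromosome 17 and then for Cd74 and Ciita. The circles all lie below 0, and the diamonds lie between -0.42 for Psmb8 and 0.13 for Tap2.

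Of the 10 genes, 8 lie within 223.9 kb of chromosome 17 (34092340 to 34316199, GRCm38), which also holds 10 other genes of the tables. Among those are the immunoproteasome subunits Psmb8 and Psmb9 and the peptide transporter subunits Tap1 and Tap2, which serve class I presentation. The 6 of the 10 that were tested had log2 fold changes from -0.42 to 0.13 with a median of -0.04. With edgeR, DESeq2 and limma-voom alike 0 of the 6 were called, and 1 had an unadjusted edgeR p under 0.05. That gene, Psmb8, had 64.9, 62.4 and 42.8 CPM in the pools labelled Rbm47-IKO and 66.0, 85.2 and 76.7 CPM in wt pools, a log2 fold change of -0.42 (adjusted p = 0.288 with edgeR). Tap1, which lies between H2-DMb1 and H2-Ob, had 111.0 CPM on average in the pools labelled Rbm47-IKO and 110.7 CPM in wt pools (95% interval of the log2 fold change -0.352 to 0.361). H2-Eb2, a class II β locus next to H2-Eb1, had 13, 47 and 56 counts against 68, 61 and 97, a log2 fold change of -0.91 (SE 0.52, adjusted p = 0.445 with edgeR). H2-Pa was at 0 counts in all 6 libraries.

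The 10 genes fell into 2 patterns across the pools, which were seen after the values were at hand (plot of each gene relative to Cd74). For H2-Aa, H2-Ab1, H2-Eb1 and H2-DMb1 the ratio to Cd74 in the same pool varied by no more than 1.17-, 1.27-, 1.25- and 1.31-fold over all 6 pools. The ratio of H2-DMa varied 1.66-fold and that of Ciita 1.56-fold. Over the same pools Cd74 itself ranged from 362.1 to 1424 CPM, a wider span than that of any of these ratios. The ratio of Ciita to Cd74 was higher in pools 2 and 3 labelled Rbm47-IKO, at log2 values of -6.10 and -5.98, than in any other pool, where it lay between -6.62 and -6.44. H2-DMb2, H2-Oa and H2-Ob did not keep that proportion, and their ratios varied 5.64-, 5.27- and 8.40-fold.

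**Figure D3:**
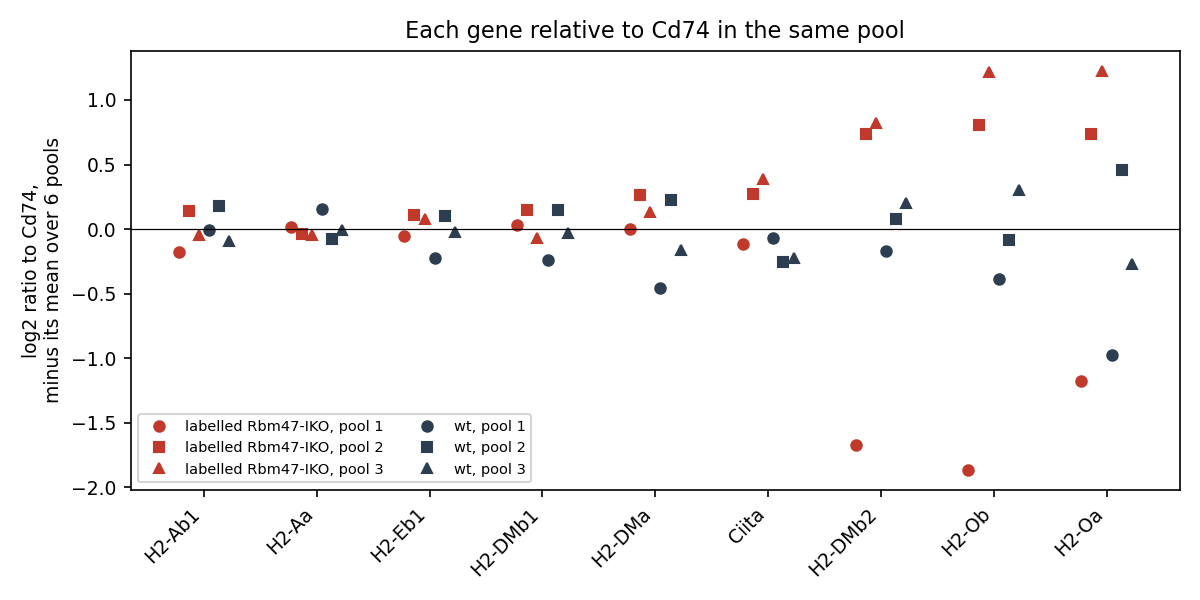
Log2 ratio of each gene to Cd74 in the same pool (both per kilobase), minus the mean of that ratio over the 6 pools, with 1 marker per pool. The markers of H2-Aa, H2-Ab1, H2-Eb1, H2-DMb1, H2-DMa and Ciita lie close together, and those of H2-DMb2, H2-Ob and H2-Oa spread 5.64-, 8.40- and 5.27-fold, with pool 1 labelled Rbm47-IKO lowest.

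The sum of these 3 genes instead followed genes of B cells. The summed level of 10 B cell genes, among them Cd22 and Cd79b, was 9.16, 29.2 and 28.4 CPM in the pools labelled Rbm47-IKO and 40.5, 28.4 and 50.4 CPM in wt pools. The sum of H2-DMb2, H2-Oa and H2-Ob was 2.25, 7.76 and 7.38 CPM against 10.6, 6.25 and 12.2 CPM, low in the same pool and high in the same pools. The ratio of these sums lay between 0.22 and 0.266 in all 6 pools, a 1.21-fold span, although the B cell sum itself varied 5.50-fold. Taken singly, the ratio to the B cell sum varied 1.38-fold for H2-Ob and 1.39-fold for H2-DMb2, which make up most of the sum, and 2.14-fold for H2-Oa, whose level varied only 2.57-fold. The sum of the other 7 genes was 1669, 1079 and 794.4 CPM against 3101, 1449 and 2342 CPM, and its ratio to the B cell sum varied 6.50-fold. Pool 1 labelled Rbm47-IKO, which had the fewest B cell reads of all, had the most class II reads of its group.

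**Figure D4:**
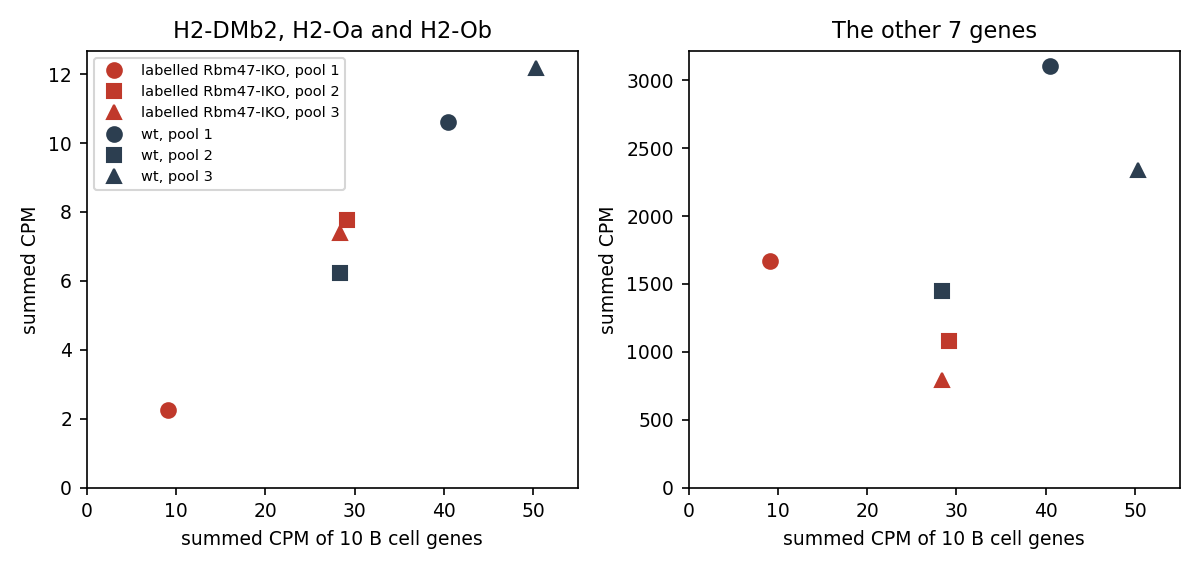
Summed CPM of H2-DMb2, H2-Oa and H2-Ob (left) and of the other 7 genes (right) against the summed CPM of 10 B cell genes, with 1 marker per pool. The left panel lies near a straight line through 0 and the right panel does not, with pool 1 labelled Rbm47-IKO at 9.16 CPM of B cell genes and 1669 CPM of the 7 genes.

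As a description over 6 pools that share their library scaling, Pearson's r of log2 CPM with the B cell sum was 0.985 for H2-Ob, 0.981 for H2-DMb2 and 0.899 for H2-Oa. It was 0.25 for Cd74 and between 0.19 and 0.328 for the other 6 genes, and as deviations from the mean of each genotype it was -0.374 for Cd74 and between -0.53 and -0.0838 for those 6. With Cd74, r lay between 0.948 and 0.998 for those 6 genes and was 0.184 for H2-Ob, 0.381 for H2-DMb2 and -0.138 for H2-Oa. As such deviations, r with Cd74 stayed between 0.923 and 0.997 for the 6 genes, so that the shared pattern was present within genotypes as well.

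All 10 B cell genes had lower means in the pools labelled Rbm47-IKO, with a median log2 fold change of -0.82. None was called by edgeR, where the lowest adjusted p was 0.312, and for 0 of them was the unadjusted p under 0.05. The part of B cells in the differences of H2-DMb2, H2-Oa and H2-Ob was not tested. Lists of the other professional presenting cells had medians near 0, -0.09 for both. The sum of 9 dendritic cell genes, Itgax highest, was 19.8, 23.4 and 21.3 CPM against 22.6, 23.8 and 21.4 CPM in wt pools, and none of its 8 tested genes was called or had an unadjusted p under 0.05. The sum of 9 macrophage genes was 333.8, 366.8 and 427.7 CPM against 501.9, 325.6 and 367.6 CPM, most of it from Mertk, and 0 of the 9 were called or had an unadjusted p under 0.05. The sum thus mainly gives Mertk, which was lowest of all pools in wt pool 2, at 216.9 CPM. Csf1r did not share that order. It had 29.2, 35.3 and 33.6 CPM against 26.9, 43.3 and 25.0 CPM in wt pools, highest in wt pool 2. Itgax, which made up most of the dendritic cell sum, differed by a log2 fold change of -0.09 (95% interval -0.376 to 0.206). Other genes of that list had few counts, such as Xcr1 with 7 to 17 and Cd209a with 8 to 26 per library. The part of dendritic cells and macrophages in the class II differences was not tested.

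Sex and muscle content moved with the class II genes among the wt pools. Wt pools 1 and 3, with the highest Y-linked sums and almost no Xist, had the most Cd74, and wt pool 2, with the lowest Y-linked and the highest muscle sum of its group, the least. Among the pools labelled Rbm47-IKO, pool 3 had the most muscle and the least Cd74, while its Y-linked sum was the highest of that group. In a fit with the Y-linked sum as a covariate, added after the data were seen, the log2 fold change of Cd74 was -0.63 (adjusted p = 0.612 with edgeR) and that of H2-Ab1 -0.82 (adjusted p = 0.443 with edgeR). With the smooth muscle sum as a covariate, also added then, H2-Aa, H2-Ab1 and H2-Eb1 passed, at -0.69, -0.78 and -0.65 (adjusted p = 0.0469, 0.0166 and 0.0423 with edgeR), against 2.0% of all genes called lower in that fit. Cd74 did not pass in it (-0.68, adjusted p = 0.0533 with edgeR). The only control pool with female RNA was also the one rich in muscle, so that sex and muscle cannot be told apart among the wt pools.

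Other genes of the pathway were examined as lists (plot of the gene lists). Interferon-γ is the main inducer of class II outside professional presenting cells. Ifng had 4, 5 and 2 counts in the pools labelled Rbm47-IKO and 1, 4 and 2 in wt pools, at or near the floor of 3 counts, and was not tested. Of its 7 tested signalling genes 0 were called by edgeR, 0 reached an unadjusted p under 0.05, and the median log2 fold change was 0.04. The kinase Jak2 had a log2 fold change of -0.30 (adjusted p = 0.4 with edgeR) and the receptor chain Ifngr2 -0.06 (adjusted p = 0.935 with edgeR). Of the 7 genes, 3 were below 0 and 4 above it, and the largest difference was that of Socs1, at 0.95 (adjusted p = 0.311 with edgeR).

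Of the 13 tested interferon-γ induced genes 1 was called by edgeR (against 2.70% of all genes) and 2 by DESeq2 (against 7.95%). An unadjusted edgeR p under 0.05 was found for 2 in the lower direction and 1 in the higher, and the median was -0.12. The gene called by edgeR, Ubd, which encodes the ubiquitin-like modifier FAT10, had 3.12, 2.83 and 1.93 CPM in the pools labelled Rbm47-IKO and 28.5, 13.2 and 10.5 CPM in wt pools, with no overlap. Ubd fell by 2.73 on the log2 scale (SE 0.41, adjusted p = 0.0194 with edgeR), more than any of the 10 class II genes. Cxcl10, the chemokine of the same list with the largest difference in the other direction, had 152, 457 and 134 counts against 34, 115 and 51, a log2 fold change of 1.92 (adjusted p = 0.128 with edgeR, 0.00198 with DESeq2). With a pool left out it ranged from 1.23, without pool 2 labelled Rbm47-IKO, to 2.51, without wt pool 2. Of the 13 genes 9 had log2 fold changes below 0 and 4 above it.

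Among genes that microbes induce in the epithelium, 2 of 7 tested were called by edgeR, both lower, against 1.25% of all genes. Pigr, the receptor that carries IgA across the epithelium, had 846.0, 910.1 and 598.9 CPM against 3266, 2218 and 2775 CPM in wt pools and fell by 1.81 on the log2 scale (SE 0.21, adjusted p = 0.0102 with edgeR). Reg3g, an antibacterial lectin, had 863.9, 841.4 and 660.7 CPM against 2410, 2109 and 1255 CPM and fell by 1.29 (SE 0.25, adjusted p = 0.0427 with edgeR). Neither Pigr nor Reg3g overlapped between the groups. Reg3b, a lectin of the same family, had 2828, 2885 and 2169 CPM against 5113, 5799 and 3801 CPM, also with no overlap (log2 fold change -0.90, SE 0.20, adjusted p = 0.0639 with edgeR). An unadjusted edgeR p under 0.05 was found for 3 of the 7, all lower, against 8.21% of all genes with that direction. DESeq2 called 3 of the 7, against 7.95% of all genes in either direction. The CPM minimum and the robust fit also called 3, with 550 and 506 genes called in all. The smooth muscle covariate called 4 (711 in all), the Y-linked covariate 0 (59) and the pool number as a block 0 (100). The median of the list was nevertheless 0.61, and 4 of the 7 genes were higher on average in the pools labelled Rbm47-IKO. With edgeR, Reg3g passed in 0 of the 6 fits with a pool left out (adjusted p from 0.0504 to 0.206). Ubd passed in 2 of them, without wt pool 1 or 2 (0.019 to 0.122 over the 6), and Pigr in 3, those and the fit without pool 3 labelled Rbm47-IKO (0.0124 to 0.0741). Without both wt pools 1 and 3 none of Ubd, Pigr and Reg3g passed, at -2.32, -1.49 and -1.41 (adjusted p = 0.0981, 0.132 and 0.0981).

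**Figure D5:**
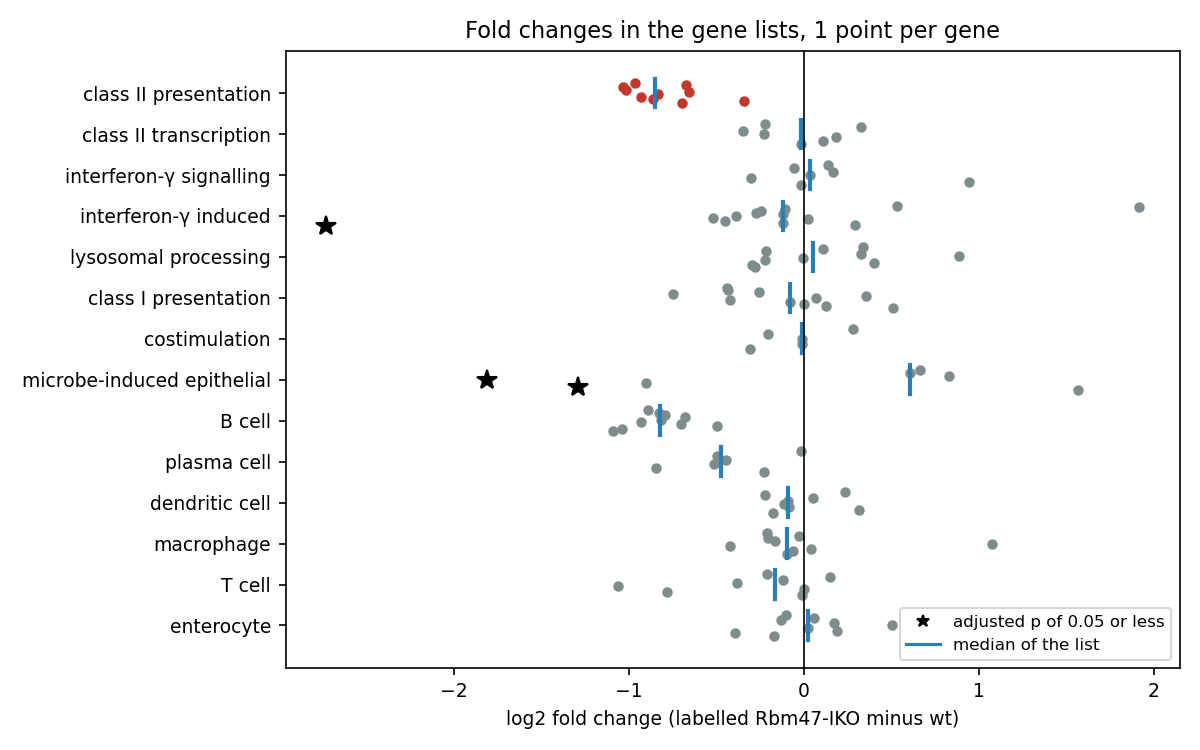
Log2 fold change (pools labelled Rbm47-IKO minus wt) of each tested gene in the gene lists, with a blue bar at the list's median and a star for genes past an adjusted p of 0.05. The class II genes and the B cell genes lie below 0 throughout, and the starred genes are Ubd, Pigr and Reg3g.

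The class I pathway, which shares the interferon response and part of the locus, had a median of -0.08 over 11 genes. None was called by edgeR, and DESeq2 called 2 of the 11, against 7.95% of all genes in either direction. An unadjusted edgeR p under 0.05 was found for 4 in the lower direction, against 8.21% of all genes, and for 1 in the higher. The higher one, Tapbp, averaged 556.5 CPM against 391.0 CPM in wt pools, with no overlap (log2 fold change 0.51, adjusted p = 0.104 with edgeR). H2-K1, a class I heavy chain, had 1273, 1197 and 947.9 CPM against 1678, 1897 and 2166 CPM, with no overlap (log2 fold change -0.75, SE 0.16, adjusted p = 0.0604 with edgeR), and it passed in 6 of 12 alternatives that kept all pools. These were edgeR with upper quartile normalization, library size only, a CPM minimum, a robust fit or the smooth muscle covariate (adjusted p = 0.0368, 0.0281, 0.0386, 0.0468 and 0.0468), and DESeq2 (adjusted p = 0.000941). It passed in 0 of the 6 fits with a pool left out (adjusted p from 0.0686 to 0.255). Class I heavy chain genes share sequence, so that reads could have been split between them. B2m, the light chain, had 1288, 1378 and 1022 CPM against 1474, 1642 and 1881 CPM, also with no overlap (log2 fold change -0.44, adjusted p = 0.221 with edgeR). Unlike Cd74, neither was lowest among wt pools in wt pool 2.

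Genes that prepare peptide for class II molecules had log2 fold changes below 0 in 5 cases and above 0 in 5. Of 10 lysosomal processing genes 0 were called by edgeR and 1 by DESeq2, against 7.95% of all genes with DESeq2, and the median was 0.05. An unadjusted edgeR p under 0.05 was found for 1 in the lower direction, against 8.21% of all genes, and for 3 in the higher. Ctsl had the largest difference, 45.5 CPM on average against 24.6 CPM in wt pools, with no overlap (log2 fold change 0.89, adjusted p = 0.143 with edgeR). Ctss, the protease that trims the invariant chain, averaged 208.0 ± 24.4 CPM in the pools labelled Rbm47-IKO and 208.3 ± 28.7 CPM in wt pools (SD, n = 3 pools each), and its log2 fold change had a 95% interval of -0.338 to 0.334. Ctsb had a log2 fold change of 0.11 (adjusted p = 0.769 with edgeR). Of 5 costimulation genes 0 were called and 0 had an unadjusted p under 0.05. Icosl had 10.4 CPM against 12.9 CPM in wt pools and Cd83 4.61 CPM against 4.64 CPM.

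The other lymphoid lists were measured in the same way. The sum of 6 plasma cell genes, nearly all from Igha and Jchain, was 352.3, 639.5 and 639.9 CPM against 1017, 564.9 and 709.3 CPM, lowest in the pool that was lowest for B cell genes. All 6 had log2 fold changes below 0, with a median of -0.47, and 0 of the 6 were called by edgeR. The sum of 8 T cell genes, led by Cd8a and Cd3g, was 57.8, 56.5 and 49.1 CPM against 70.7, 49.3 and 50.7 CPM, and 0 of the 8 were called, 1 (Cd5, lower) having an unadjusted p under 0.05.

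The genes most like H2-Aa, H2-Ab1, H2-Eb1 and Cd74 over the 6 pools, by Pearson's r with their mean log2 CPM among all other genes tested, were 0610009E02Rik (0.995), Otud4 (0.994), Caprin1 (0.994), Eif2a (0.993) and Fam84a (0.992). The first of them had 11 to 27 counts per library. Their log2 fold changes were -0.62, -0.26, -0.22, -0.14 and -0.20, and none was called by edgeR. With only 6 pools, 76 genes had an r over 0.95, and the choice of the highest among so many carries no test.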

How the data were processed

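The deposited tables, 1 for each pool, list 38561 Ensembl genes with the raw read count and the CPM and RPKM that the authors derived from it, which were recomputed as a check and not used further. The submitters' processing notes name STAR 2.5.1a, Subread, featureCounts 1.4.6-p5 and GRCm38 without order, and the strand setting is not given in the sources used here. Symbols, found for 36639 genes, came from a reference table of gene IDs. No tables were identical.

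Counts were tested with edgeR 4.0.16 (R 4.3.3): filterByExpr, TMM and the quasi-likelihood test over all 16425 genes, with Benjamini-Hochberg adjustment and the study's threshold of 0.05. DESeq2 1.42.0, limma 3.58.1 (voom) and other filters and normalizations were alternatives, and Python 3.11.15 made the summaries. CPM and RPKM in the text use TMM library sizes. Standard errors and 95% intervals come from the edgeR F statistic. On simulated data with 200 of 16425 genes changed, in 5 draws, the test called 43.1% of 2-fold and 83.3% of 4-fold changes, and 4.85% of its calls were false. The smallest p that exact permutation allows for 3 pools per group is 0.1. Depth and the floor of 3 counts concern counting error only.

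The genes, the lists and the tests were chosen with earlier results of these data known. From each list the text names the called genes (at most 4) or the 2 most abundant. Rbm47, the class II loci and the 5 genes most alike in pattern were also named by rule. Psmb8, Psmb9, Tap1, Tap2, Tapbp, Rfx5, Nfyb, Cd5, Reg3b, Ifng, Cxcl10, Ctsl and Socs1 were chosen after their values were seen. A marker list is not reported here. Promoter windows came from RefSeq (GRCm38.p6).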

Additional observations from a re-analysis of the deposited data

How the results depend on the processing

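The direction of the 10 class II genes was the same in every alternative in which each was tested (H2-Oa could not be tested with a CPM minimum of 1 in 3 pools), except that without both wt pools 1 and 3, an alternative chosen after seeing the data like both covariates, H2-Ob was at 0.0521 and Ciita at 0.14. That fit called 1 gene, which was lower, 0 of the class II genes and 0 of the pathway list genes, with 2079 genes at an unadjusted p under 0.05, none of them of class II. The number called lower was 0 with edgeR, and 3 with DESeq2 and with the smooth muscle covariate, and 0 with each pool left out. Over the other alternatives H2-Ab1 ranged from -1.06 to -0.78 and from -1.28 to -0.74 with a pool left out, Cd74 from -1.01 to -0.63 and from -1.33 to -0.69, H2-Aa from -1.08 to -0.63 and from -1.43 to -0.67, and Ciita from -0.72 to -0.35 and from -0.95 to -0.32. Over all genes tested, 443 were called, 205 of them lower. These numbers were 1132 and 516 with DESeq2, 59 and 24 with the Y-linked covariate, 711 and 329 with the smooth muscle covariate, and ranged from 0 to 431 and from 0 to 211 with a pool left out, being 0 and 0 without pool 2 labelled Rbm47-IKO (1729 with an unadjusted p under 0.05), 32 and 5 without pool 1, 119 and 39 without pool 3, and 11 and 4 without wt pool 3. The cause was not tested. Of the pathway list genes 3 were called, 1 of 13 interferon-γ induced and 2 of 7 microbe-induced genes, against 2.70% of all genes. DESeq2 called 8, in the lists given above with their sizes, against 7.95% of all genes. The number was 5 with library size only, with the CPM minimum and with the robust fit (614, 550 and 506 called in all). It was 0 with the Y-linked and 6 with the smooth muscle covariate, and 0 to 3 with a pool left out. Rbm47 passed with library size only and with DESeq2, at 0.41 and 0.42 on the log2 scale (adjusted p = 0.0473 and 0.00942), and ranged from 0.40 to 0.44 without 1 pool. The labels give pools of the 2 groups a shared number and no other link. Deviations of same-numbered pools from their group means correlated at 0.408, -0.00258 and -0.277. Between pools of different number the values ran from -0.536 to 0.479, so that these correlations cannot show whether the pools were paired. A fit with that number as a replicate block called 100 genes, 37 of them lower, and 0 of the class II genes, with H2-Ab1 at -1.02 (adjusted p = 0.116). In the block fit Pigr and Reg3g did not pass (adjusted p = 0.053 and 0.0618), Cxcl10 did (0.046) and Ubd still did (0.0346). Of the class II genes H2-Oa had the fewest counts, 10 to 28 per library, and H2-Ob the largest standard error, 0.51.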
